A study of Mus musculus with 22 samples.

Results

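Potassium channel genes are described here as every deposited gene entry whose symbol begins with Kcn, which gave 97 of 24490 entries. They cover the pore-forming subunits, the modifying subunits that have no conducting channel of their own, the auxiliary subunits and 3 noncoding entries named after a channel gene (Kcnq1ot1, Kcnd3os and Kcnmb4os1). Of the 97, 60 passed the minimum mean of 1 FPKM over the 22 libraries and were tested, among 12097 genes tested in all. FPKM counts sequenced fragments per length of transcript and per library size, so levels can be compared between genes, and all levels below are FPKM scaled between libraries.

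The libraries came from E16.5 mouse cortical neurons of the C57BL/6 strain that carry the label Creb1-/- in every group, after 7 days in culture. Infection with herpes simplex virus (HSV) brought in GFP as the control, CREB of normal sequence (WT), CREB with the S40A change, which removes a serine that can carry a sugar, CREB with S133A, which removes a serine that is phosphorylated upon activity, or CREB with both (S40A-S133A). The virus was present for 4 h (GFP, WT and S40A, 2 libraries each) or 8 h (GFP, WT and S40A with 4 libraries each, S133A and S40A-S133A with 2 each). All cultures had been silenced beforehand with 1 µM tetrodotoxin and 100 µM D-AP5, which block sodium channels and NMDA receptors, and were then depolarized for 2 h with 55 mM KCl, so there was no unstimulated group and the effect of KCl itself could not be measured. The question addressed is whether the sugar and phosphate sites of CREB set which genes it drives in depolarized neurons.

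Runs A, B, D1 and D2 and the sets C and D were read from the numbering of the files, and C1 and C2 from the replicate numbers. The labels do not name any of these as technical batches. The main virus fits at 8 h had a term for the set, and none had a term for the run. Runs A and B hold the 4 h replicates 1 and 2. Runs C1 and C2 (set C) hold 8 h replicates 1 and 2 of the groups with 4 libraries, and runs D1 and D2 (set D) hold their replicates 3 and 4, with 1 replicate of S133A and 1 of S40A-S133A in each. The files of run A differed in kind from the rest: 347 entries in each carried a low-data status, against 0 elsewhere, and 1765 to 1855 values lay outside their own confidence bounds, against at most 6. The GFP replicate 2 library at 8 h also stood apart, with a highest correlation to any other library of 0.859 (Pearson, log2 levels of all genes tested), against 0.916 to 0.943 for the others. Creb1 measured 9.69 to 15.9 in the 6 GFP libraries, 236 to 269 in the 4 h CREB libraries and 555 to 2314 in the 8 h CREB libraries. A level summed over the whole gene does not show which part the labelled deletion removes. The summed neuronal markers ranged from 1408 to 2155 FPKM, and those of astrocytes and radial glia from 96.8 to 918, with the highest value in the S40A 4 h replicate 1 library of run A.

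Potassium channels let potassium leave the cell and so pull the membrane back towards rest. Voltage-gated Kv channels (Kcna, Kcnb, Kcnc, Kcnd) end the action potential, KCNQ channels give the M-current that damps repeated firing, inward rectifiers (Kcnj) and 2-pore-domain channels (Kcnk) hold the resting potential, and calcium-activated channels (Kcnma, Kcnn) couple firing to calcium entry. High external potassium shifts the driving force of all of them, and CREB is a transcription factor that binds the cAMP response element (CRE), of letters TGACGTCA, in promoters of activity-regulated genes.

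The RefSeq promoter table (GRCm38.p6, 250 bases before to 50 after each start) held windows for 71 of the 97 members. The full CRE was in the window of 0 of the 71, against 2.03% of 27025 symbols. Its shorter motif TGACG, read on either strand as TGACG or CGTCA and contained in the full CRE, was in 19 of 71 members (26.8%), against 23.0% of all symbols. Among the 42 tested members with a window it was in 8 (19.0%). The stretches around the motif are shown for 7 of these 8, with the motif in capitals. Those of Kcnn1 and Kcnt2 lie before starts outside the deposited entries (chr8:70842049-70857008 and chr1:140246257-140610261). That of Kcnj4 was at chr15:79505384-79505428 on the minus strand, Kcnc1 at chr7:46396218-46396256 on the plus strand, Kcnc4 at chr3:107458938-107458982 on the minus strand, Kcnab2 at chr4:152477700-152477744 on the minus strand (with the same letters again in the shown stretch, left in lower case), Kcnt2 at chr1:140245607-140245651 on the plus strand, Kcna6 at chr6:126740675-126740700 on the minus strand and Kcnn1 at chr8:70863364-70863408 on the minus strand.
Kcnj4: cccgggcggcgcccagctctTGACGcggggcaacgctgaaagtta
Kcnc1: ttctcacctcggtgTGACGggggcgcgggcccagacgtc
Kcnc4: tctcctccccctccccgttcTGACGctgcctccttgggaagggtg
Kcnab2: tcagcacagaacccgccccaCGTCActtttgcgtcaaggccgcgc
Kcnt2: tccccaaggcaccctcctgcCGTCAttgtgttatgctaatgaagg
Kcna6: gcagcaggcggggcctgccaCGTCAc
Kcnn1: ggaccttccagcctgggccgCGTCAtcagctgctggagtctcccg

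Kcnf1 and Kcnj2, the members with the largest differences between runs, had neither motif in their windows, and their 100 bases before the start are shown for comparison (Kcnf1 at chr12:17176889-17176988 on the minus strand, Kcnj2 at chr11:111066064-111066163 on the plus strand). A match or its absence describes these letters in these windows and says nothing of binding.
Kcnf1: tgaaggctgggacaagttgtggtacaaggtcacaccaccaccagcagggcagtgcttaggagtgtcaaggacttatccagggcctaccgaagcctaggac
Kcnj2: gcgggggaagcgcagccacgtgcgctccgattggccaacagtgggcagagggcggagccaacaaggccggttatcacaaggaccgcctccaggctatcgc

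The members together reached a summed level of 503 FPKM on average, from 367 in the S40A 4 h replicate 1 library to 615 in the S40A 8 h replicate 1 library. Kcnmb4, the neuronal beta subunit of the BK channel, was at 33.2 ± 5.76 (SD, n = 22 libraries), followed by the leak channel TASK-3 gene Kcnk9 at 30.0 ± 8.37 and the silent Kv subunit gene Kcnf1 at 24.3 ± 9.14. In all, 15 members had a mean of 10 or more and 45 tested members a mean from 1 to 10.

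**Figure D1:**
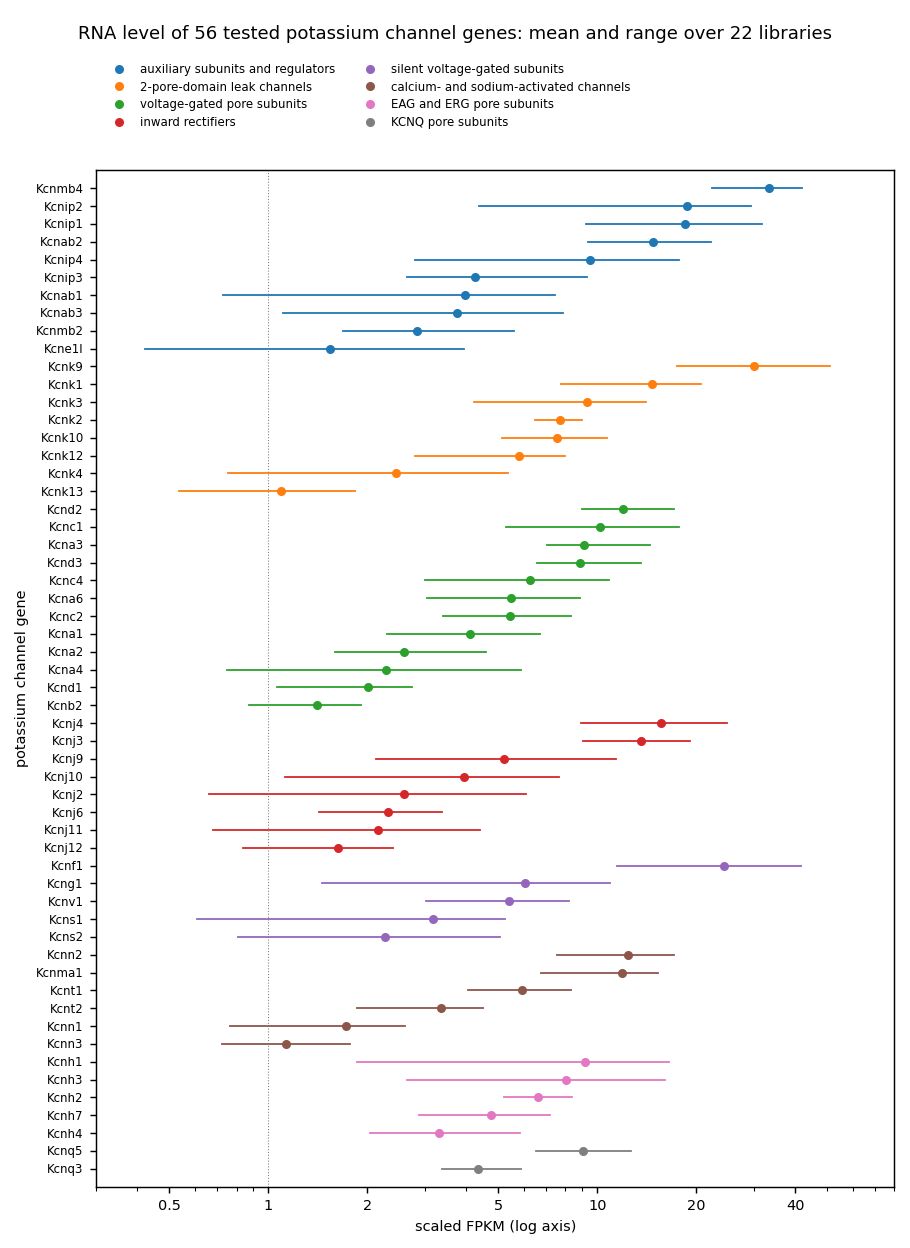
Scaled FPKM on a log axis for 56 of the 60 tested potassium channel genes, coloured by role and ordered by level within it; the point is the mean and the line the lowest to highest of the 22 libraries. Kcnmb4, Kcnk9 and Kcnf1 lead those drawn, and Kcnab1, from 0.729 to 7.45, has the longest line on this axis.

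By role, auxiliary subunits and regulators held the largest share, 113 FPKM or 22.4% of the summed level. Within them the Kv channel interacting proteins, which bind Kv4 pores and bring them to the membrane, were at 18.8 ± 9.10 (Kcnip2), 18.5 ± 6.37 (Kcnip1), 9.47 ± 3.70 (Kcnip4) and 4.25 ± 1.54 (Kcnip3, also known as the transcriptional repressor DREAM). The cytoplasmic beta subunits were led by Kcnab2 at 14.7 ± 3.52. The Kv4 pores that pair with the interacting proteins were at 12.0 ± 2.07 (Kcnd2) and 8.83 ± 2.43 (Kcnd3).

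Voltage-gated pore subunits summed to 94.4 FPKM. Besides Kcnd2 they included the fast Kv3 gene Kcnc1 at 10.2 ± 2.94 and the delayed rectifier gene Kcnb2 at 1.40 ± 0.243. The tested Kv1 genes, which set the firing threshold in axons, ranged from Kcna3 at 9.11 ± 2.15 down to Kcna4 at 2.28 ± 1.39. The 2-pore-domain leak channels summed to 80.1 FPKM, with Kcnk1 (14.7 ± 4.71) and Kcnk3 (9.33 ± 3.05) behind Kcnk9. Of the KCNQ genes, Kcnq5 was at 9.04 ± 1.44 and Kcnq3 at 4.33 ± 0.607.

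Inward rectifiers summed to 47.9 FPKM, with Kcnj4 at 15.6 ± 4.57, the G-protein-gated Kcnj3 at 13.6 ± 2.74 and Kcnj2 at 2.59 ± 1.82. Silent Kv subunits summed to 43.1, mostly Kcnf1. Calcium- and sodium-activated channels summed to 37.2, with the SK channel gene Kcnn2 at 12.4 ± 3.09 and the BK pore gene Kcnma1 at 11.9 ± 2.41. The EAG and ERG genes summed to 33.3, led by Kcnh1 at 9.16 ± 3.93.

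The 37 members that were not tested stayed under the minimum, the nearest being Kcnrg at 0.988, against 1.09 for Kcnk13 just inside it. Kcnq1, whose channel is best known from heart and epithelium, was listed at 0 in all 22 libraries, as were Kcnd3os and Kcnmb4os1. Each of the 3 overlaps another member in position (Kcnq1ot1, Kcnd3 and Kcnmb4). How reads in overlapping entries were assigned is not given, so these zeros are not read as absence. In 8 members the level was listed at 0 in 11 or more libraries. The authors' own 95% confidence bounds, taken outside run A, had a median width on either side of 6.68% of the level for members of mean 10 or more (3.42% to 10.1% by gene) and 11.4% for those from 1 to 10 (3.63% to 28.5%). Read totals were not in the files, and these bounds cover estimation within a library, not the spread between libraries.

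Among the tested members, Kcnh1, Kcnip2 and Kcnip4 varied most over the 22 libraries, with ranges of 2.62, 2.49 and 2.30 on the log2(level + 1) scale. Kcnk2, Kcnh2 and Kcnb2 varied least on that scale, with ranges of 0.42, 0.60 and 0.64. The added 1 narrows the range of low members. As highest over lowest level, Kcnb2 spanned 2.19-fold, against 1.73-fold for Kcnq3, and Kcnab1 spanned 10.2-fold. Kcnk2, a mechanosensitive leak channel gene, stayed between 6.47 and 8.98 in every library.

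No potassium channel gene was called different between virus groups. In limma fits over all 12097 genes with Benjamini-Hochberg adjustment, 0 of 60 members reached an adjusted p under 0.05 in any of 10 comparisons at 8 h, 3 at 4 h and 3 that asked whether a virus effect differed between the times. Calls were rare among all genes too, from 0.0% through 0.00827% and 0.0165% to 0.0248% at 8 h, from 0.0909% to 0.0992% at 4 h and from 0.00827% to 0.0248% for the difference between times. At an unadjusted p under 0.05, the 8 h fits had 0 members for WT minus GFP (all genes 1.07%), 3 for S40A minus GFP (5.93%), 1 for S133A minus GFP (2.51%) and 1 for S40A-S133A minus GFP (3.73%). There were 10 for S40A minus WT (4.25%), 0 for S133A minus WT (1.49%), 0 for S40A-S133A minus WT (1.74%), 2 for S40A-S133A minus S40A (1.99%), 0 for S40A-S133A minus S133A (0.364%) and 1 for the interaction of both changes (0.686%). The 4 h fits had 0 in each comparison, against 0.314% (WT minus GFP), 0.488% (S40A minus GFP) and 0.314% (S40A minus WT) of all genes. The difference between times had 0 for WT minus GFP (0.562%), 1 for S40A minus GFP (1.16%) and 1 for S40A minus WT (0.885%), the silent subunit gene Kcnv1 in both. A p that misses the threshold does not show that the levels were alike, and since separate cultures are not stated for the replicates, the spread behind these p-values may be technical.

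For S40A against WT at 8 h, 50 of 60 members had a higher mean in S40A, against 49.6% of all genes tested, and the median log2 difference was 0.15, against 0.00 for all genes. By role, 12 of 14 voltage-gated pores, 4 of 4 KCNQ genes, 4 of 5 EAG and ERG genes, 4 of 5 silent subunits, 6 of 8 inward rectifiers, 7 of 8 leak channels, 5 of 6 calcium- and sodium-activated channels and 8 of 10 auxiliary genes were on the higher side. These are signs of differences that did not pass the test. Leaving out any 1 of the 16 libraries gave 47 to 53 members on the higher side and a median from 0.13 to 0.20. The difference between 8 h and 4 h of S40A minus WT was on the higher side in 51 members (all genes 50.6%), with a median of 0.19, that of S40A minus GFP in 45 (49.8%), with a median of 0.13, and that of WT minus GFP in 16 (48.3%), with a median of -0.10. Leaving out 1 of the 22 libraries gave 42 to 51, 32 to 48 and 16 to 29 in the same order.

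The smallest unadjusted p belonged to Kcnip4, a Kv channel interacting protein. Its level was 11.0, 9.86, 12.0 and 8.34 in the WT libraries (replicates 1 to 4) and 17.7, 16.3, 13.3 and 11.6 in the S40A libraries. The lowest S40A library lay below the highest WT library, and the log2 difference was 0.47 ± 0.14 (SE; limma adjusted p = 1). Kcnh1, an EAG channel gene, was at 9.97, 9.28, 9.38 and 9.00 in WT and at 16.504, 13.8, 12.9 and 12.0 in S40A, with a log2 difference of 0.50 ± 0.16 (SE; limma adjusted p = 1). The WT and S40A libraries did not overlap for Kcnh1, but the GFP libraries, at 8.86, 15.9, 9.33 and 11.5, reached into both groups.

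Kcnv1, a silent Kv subunit gene, was at 4.76, 3.35, 6.10 and 6.34 in WT and at 7.80, 8.18, 6.83 and 6.69 in S40A. The groups did not overlap, and the log2 difference was 0.47 ± 0.16 (SE; limma adjusted p = 1). Kcna1, an axonal Kv1 pore gene, was at 2.31, 2.30, 3.21 and 3.23 in WT and at 4.07, 3.63, 3.48 and 4.14 in S40A. Its log2 difference was 0.37 ± 0.14 (SE; limma adjusted p = 1), and in the GFP libraries it ran from 2.51 to 4.50, across both groups. Kcnv1 in the GFP libraries was at 4.64, 5.41, 6.78 and 5.64, mostly within the WT range.

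Within runs, the median difference of S40A from WT over the 60 members was 0.41 in C1 and 0.25 in C2, but 0.05 in D1 and 0.09 in D2. These values compare single libraries, which at 8 h were not taken as pairs in the fits. Deviations of the WT and S40A libraries from their group means correlated at 0.04 (C1), -0.02 (C2), 0.19 (D1) and 0.16 (D2). At 4 h it was -0.05 in run A and -0.02 in run B. Both runs of set C thus had larger medians than both runs of set D. In C1 the S40A library lay above both others for the EAG-family gene Kcnh3, at 12.1 against 5.56 (GFP) and 5.31 (WT), and for Kcnip2, at 25.9 against 14.9 and 16.2. That library lay below both for Kcnmb4, at 30.2 against 41.8 and 41.7, and for Kcnk9, at 32.4 against 36.4 and 37.2. In C2 the WT library was below both others for Kcnh3, at 6.45 against 16.1 (GFP) and 15.5 (S40A), but above both for Kcnc1, at 17.7 against 14.7 and 11.9, and for Kcnip1, at 31.6 against 25.2 and 21.0. The same library had the highest summed microglia markers of all 22, at 31.1 FPKM with 4.54 as the lowest of run C2, and its median difference from GFP was 2.11 for the 2 tested microglia markers and 0.65 for the inhibitory markers. Slc17a7, the vesicular glutamate transporter of excitatory neurons, was at 66.7 against 38.5 (GFP) and 41.7 (WT) in C1, and at 18.9 (WT) against 86.1 and 83.0 in C2. The list of 7 excitatory markers that holds Slc17a7 did not move with it, with medians for S40A minus WT of -0.52 in C1 and -0.10 in C2. For S40A minus WT, the activity-regulated immediate early genes had medians of -0.24 (C1), -0.99 (C2), 1.25 (D1) and 0.72 (D2). At 4 h their medians were -0.91 (run A) and -0.15 (run B). The part of these markers and of the immediate early genes in the channel differences was not tested. Over the 4 runs the 7 excitatory markers had 1 of 7 members on the higher side for S40A minus WT, with a median of -0.26. The 8 neuronal markers had 5 on the higher side, the 9 tested inhibitory markers 7, the 10 astrocyte and radial glia markers 3, the 7 tested oligodendrocyte lineage markers 4, the 2 tested microglia markers 0, the 2 tested vascular and fibroblast markers 1 and the 6 markers of dividing progenitors 1, with 0 called in each of these lists.

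**Figure D2:**
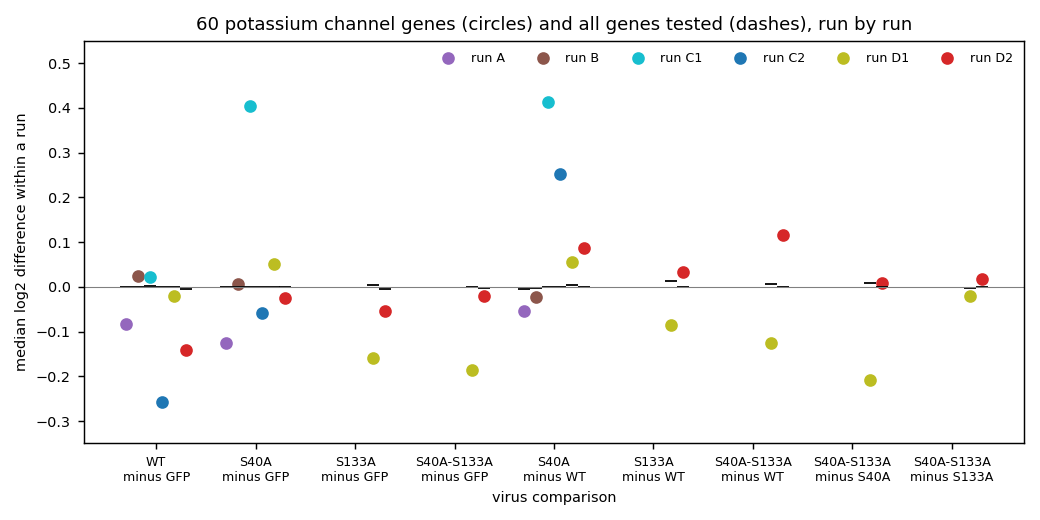
Median log2 difference over the 60 tested potassium channel genes within each run (circles, coloured by run) and over all 12097 genes tested (dashes) for the 9 virus comparisons. S40A minus WT is at 0.41 in run C1 and 0.25 in C2 but at 0.05 and 0.09 in D1 and D2, and the dashes stay near 0. Each circle compares single libraries, which at 8 h were not taken as pairs in the fits.

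WT minus GFP at 8 h had 14 of 60 members on the higher side (all genes 49.1%) and a median of -0.11. Within runs the median was 0.02 (C1), -0.26 (C2), -0.02 (D1) and -0.14 (D2), and leaving out 1 library gave 8 members and a median of -0.18 (without GFP replicate 1) to 21 members and a median of -0.06 (without GFP replicate 2). The member with the smallest unadjusted p was Kcnk3, the TASK-1 leak channel gene, at 10.9 ± 1.86 over the 16 libraries of 8 h and with a log2 difference of -0.28 ± 0.16 (SE; limma adjusted p = 1). S40A minus GFP had 40 of 60 on the higher side (all genes 49.5%) with a median of 0.10, from 0.40 in C1 to -0.06 in C2. The comparisons against GFP share the GFP libraries, and those against WT the WT libraries.

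Against WT, S133A had 31 of 60 members on the higher side (all genes 51.5%) and S40A-S133A 33 (51.2%), with medians of 0.02 and 0.03. The direction of both rested on single libraries: leaving out 1 library gave 21 (without S133A replicate 2) to 43 (without S133A replicate 1) for the former, with medians of -0.11 and 0.08, and 27 (without S40A-S133A replicate 2) to 44 (without S40A-S133A replicate 1) for the latter, with medians of -0.08 and 0.13. S40A-S133A had 18 on the higher side against S40A (all genes 51.0%), with a median of -0.15, and 32 against S133A (48.7%), with a median of 0.01. Leaving out 1 library gave 13 to 25 against S40A, with medians from -0.25 to -0.08, and 20 (without S133A replicate 1) to 42 (without S133A replicate 2) against S133A, with medians from -0.11 to 0.15. Kcnip4 had the smallest unadjusted p against S40A, with a log2 difference of -0.55 ± 0.18 (SE; limma adjusted p = 1). At 4 h the members on the higher side were 31 for WT minus GFP (all genes 50.1%), 20 for S40A minus GFP (49.3%) and 24 for S40A minus WT (47.4%). Leaving out 1 library gave 24 to 35, 19 to 35 and 22 to 29. With the run as a replicate block, 0 members were called in these comparisons, 2, 1 and 3 members had an unadjusted p under 0.05, and limma called 10, 8 and 7 of all genes, against 12, 11 and 11 without the block.

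S133A minus GFP and S40A-S133A minus GFP each had 24 of 60 members on the higher side (all genes 50.0% and 49.8%), with medians of -0.15 and -0.10. Leaving out 1 library gave 17 to 27 for the former and 18 to 33 for the latter, whose median was 0.02 without S40A-S133A replicate 1. Kcnh4, an ELK-type channel gene, had the smallest unadjusted p in the former (log2 difference -0.34 ± 0.13, SE; limma adjusted p = 0.995) and was at -0.29 ± 0.13 in the latter (SE; limma adjusted p = 0.973). The interaction, which asks whether S40A has another effect on CREB that already carries S133A, had 9 of 60 on the higher side (all genes 49.1%) and a median of -0.17. Leaving out 1 library moved that median between -0.30 (without S133A replicate 1) and -0.01 (without S40A-S133A replicate 1), and the count to 30 in the latter. Kcnj3, a G-protein-gated inward rectifier gene, had the smallest unadjusted p there, with a value of -0.52 ± 0.22 (SE; limma adjusted p = 1).

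Both libraries of the S133-changed CREB forms in run D1 stood apart from the other D1 libraries, and their counterparts in run D2 did not. In D1, 28 of 60 members (46.7%) had S133A and S40A-S133A both below GFP, WT and S40A, against 18.8% of all genes tested, and 9 of 60 had both above, against 22.1% of all genes. In D2 the same arrangement held for 5 members below (8.33%, all genes 13.8%) and 7 above (11.7%, all genes 11.8%). This arrangement was chosen after the values had been seen and is given as a description.

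Kcnip2 shows the gap most plainly. In D1 it was at 25.7 (GFP), 24.0 (WT) and 24.7 (S40A) but at 7.07 (S133A) and 7.27 (S40A-S133A), while in D2 the same 5 viruses gave 27.0, 24.3, 28.6, 23.6 and 28.9. Kcnip1 was at 19.3, 17.4 and 20.2 against 9.43 and 9.93 in D1, and at 20.8 to 25.5 in all of D2. Kcnab1, a Kv1 beta subunit gene, was at 5.85 to 7.45 against 1.90 and 2.27 in D1, and at 5.09 to 5.79 in D2.

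Kcns1, a silent subunit gene that pairs with Kv2 pores, was at 3.99 to 5.23 against 1.60 and 1.58 in D1, and at 4.31 to 4.89 in D2. Kcnh3 was at 10.3 to 12.1 against 5.70 and 5.55 in D1, and Kcnj9, a G-protein-gated rectifier gene named after its values were seen, at 7.30 to 8.34 against 3.97 and 3.80. Members on the other side in D1 included Kcnk9, at 51.1 and 44.3 against 28.6 to 42.3, and the Kv4 pore gene Kcnd3, at 9.49 and 10.3 against 7.07 to 7.39. Slc17a7 was lower in these 2 libraries as well, at 30.6 and 29.7 against 84.0 to 90.6 in D1, with 63.7 to 77.0 in D2, but the list of 7 excitatory markers that holds it was not, with D1 medians of 0.11 (S133A minus GFP), 0.15 (S133A minus WT) and 0.08 (S40A-S133A minus GFP). Their part in these values was not tested. With 1 library per virus and run, the virus and the library cannot be told apart in D1, and the D2 libraries of the same viruses did not show the gap.

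**Figure D3:**
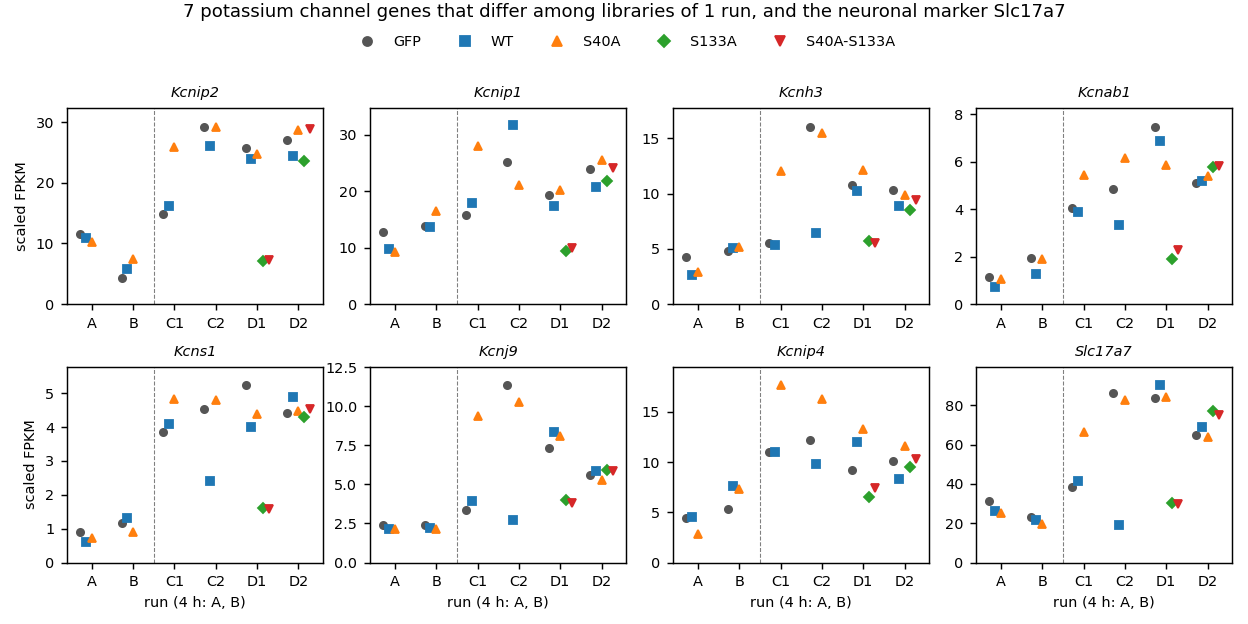
Scaled FPKM of 7 potassium channel genes and of Slc17a7 in each of the 22 libraries, by run on the horizontal axis (4 h left of the dashed line) and by virus (colour and shape). In run D1 the S133A and S40A-S133A libraries lie below the others, at 7.07 and 7.27 for Kcnip2 against 24.0 to 25.7, and in D2 they do not.

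Kcnj10, the inward rectifier Kir4.1 that astrocytes use to take up potassium, differed widely between libraries of the same virus. In D1 it was at 6.63 (GFP), 2.62 (WT), 1.61 (S40A), 1.12 (S133A) and 3.08 (S40A-S133A). In D2 it was at 3.18, 6.22, 2.72, 7.66 and 4.67 in the same order of viruses, so its lowest and its highest value of all 22 libraries were both from S133A. The astrocyte marker Gfap was at 19.6, 1.90, 1.11, 0.864 and 4.62 in D1 and at 3.14, 13.4, 2.36, 13.7 and 6.61 in D2. Libraries of a run stood in the same order for Kcnj10 as for Gfap in 5 of 6 runs. This was seen after the values were known, and 25 of all genes tested (0.207%) had the order of Gfap in as many runs, with Kcnj10 the only member among the 60. In D1 the 10 astrocyte and radial glia markers, Gfap among them, had medians against GFP of -1.14 (WT), -1.69 (S40A), -1.34 (S133A) and 0.19 (S40A-S133A). Kcnj10 differed from GFP by -1.07, -1.55, -1.85 and -0.90 (log2), opposite to the list for S40A-S133A. In D2 the list was at 0.99, -0.11, 1.25 and 0.44 and Kcnj10 at 0.79, -0.17, 1.05 and 0.44. For S40A minus GFP in C1 they were at -0.04 and 0.52. The part of these markers was not tested. In bulk RNA, more cells of a type and more RNA per cell cannot be told apart.

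The 4 h and the 8 h libraries are set side by side without a test, since each run held libraries of 1 time and time and run cannot be told apart. In 10 members every 8 h library lay above every 4 h library, or 10 of 60 against 5.28% of all genes tested, and in 2 members every 8 h library lay below, against 4.48%. The minimum was a mean over all 22 libraries, 16 of them at 8 h, so a low member could pass it through its 8 h level. Kcns1, Kcnj12 and Kcnk13 had 4 h means under 1 (0.931, 0.909 and 0.629). Kcnh5, untested at a mean of 0.893, lay at 1.19 to 1.28 at 4 h and at 0.507 to 1.17 at 8 h. The split into 10 and 2 thus depends in part on the minimum. Kcns1 was at 0.931 ± 0.263 (SD, n = 6) at 4 h and 3.99 ± 1.13 (n = 16) at 8 h, or 4.29-fold. Kcng1, another silent subunit gene, was at 2.15 ± 0.762 and 7.49 ± 1.66, or 3.49-fold. Silent subunits do not conduct alone and modify Kv2 channels.

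The EAG-family genes on the higher side at 8 h were Kcnh1 (4.29 ± 2.14 and 11.0 ± 2.66, 2.56-fold) and Kcnh3 (4.14 ± 1.09 and 9.52 ± 3.36, 2.30-fold). Also on that side were 3 rectifier genes, Kcnj9 (2.83-fold), Kcnj11 (2.54-fold), which encodes the pore of the ATP-sensitive channel, and Kcnj12 (2.09-fold), and 3 leak channel genes, Kcnk3 (5.18 ± 0.633 and 10.9 ± 1.86), Kcnk1 (8.22 ± 0.407 and 17.1 ± 2.80) and Kcnk13 (0.629 ± 0.0478 and 1.26 ± 0.313). On the lower side were Kcnd3, at 12.3 ± 1.22 and 7.52 ± 1.01, and Kcnk10, at 9.42 ± 1.02 and 6.85 ± 0.824. Kcnj9, Kcnj12 and Kcnk13 are named here because of this pattern. Kcnk1 lay between 7.74 and 8.64 in the 6 libraries at 4 h and between 11.4 and 20.7 at 8 h. The summed markers of dividing progenitors were 27.5 to 102 in the 4 h libraries and 6.13 to 16.4 in the 8 h libraries, and their part in these values was not tested.

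**Figure D4:**
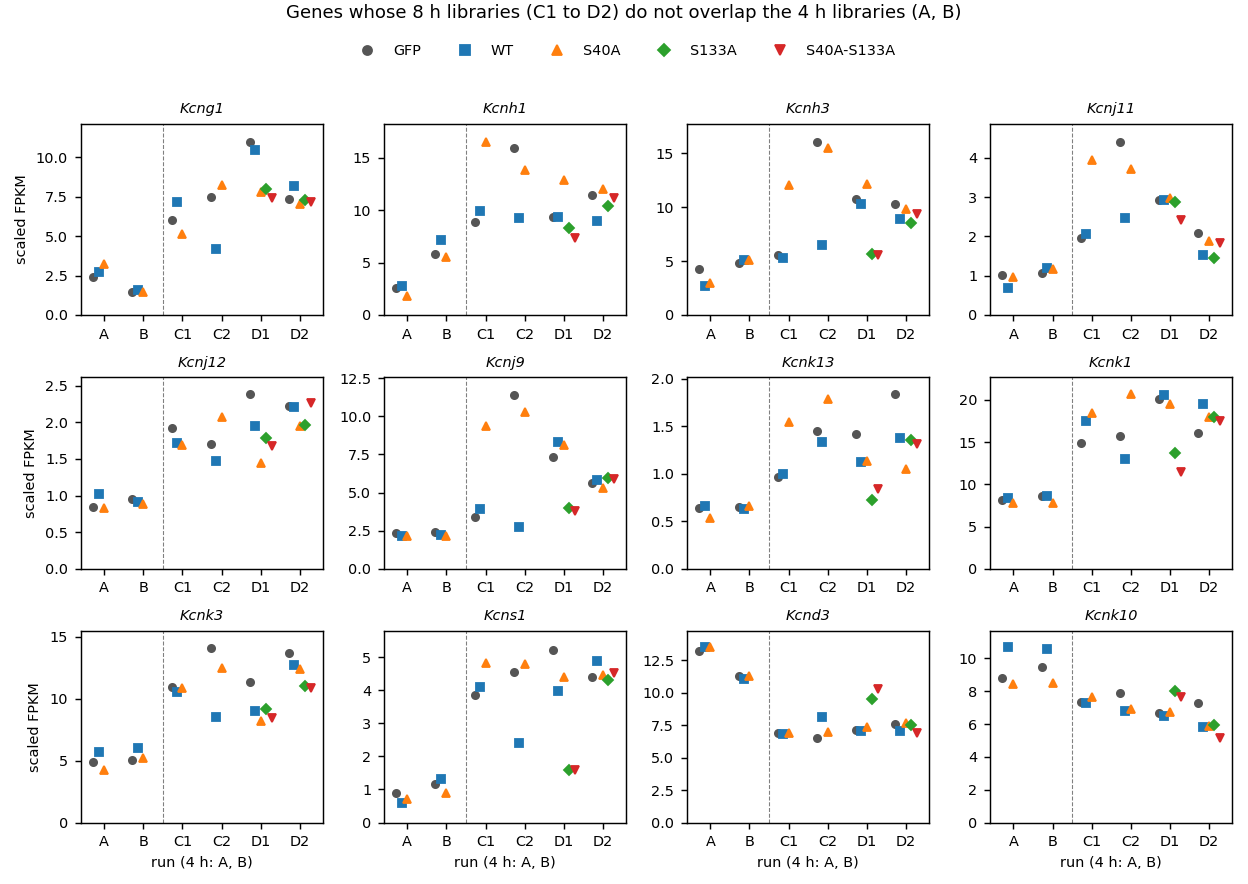
Scaled FPKM in each of the 22 libraries for the 12 potassium channel genes whose 8 h libraries (runs C1 to D2, right of the dashed line) do not overlap the 4 h libraries (runs A and B), with the virus by colour and shape. Kcns1 lies between 0.605 and 1.31 at 4 h and between 1.58 and 5.23 at 8 h, and Kcnd3 and Kcnk10 are the 2 genes on the lower side.

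Between the 2 runs at 4 h, 27 of 60 members (45.0%) were called different, 15 higher and 12 lower in B, with virus as a term. The background was 41.1% of all genes tested, 20.1% higher and 21.0% lower, so the members' share was near it. Since the run A files differ in kind, run and processing cannot be told apart in these values. Without scaling between libraries, which puts the median of all genes at -0.25, the members called were 13 higher and 16 lower (all genes 1145 higher and 4909 lower). Leaving out 1 library of a group leaves its other library fitted exactly, so both choices within a group give the same fit. The share over all genes is not given for these fits, so a change in count is not read as particular to the members. The count was 27 without the GFP pair, of which 22 were among the first 27 and Kcnd3, Kcnh2, Kcnh7, Kcnip2 and Kcnmb4 were not, and it was 1 (Kcnj2) without the WT or the S40A pair.

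Kcnj2, which encodes the strong inward rectifier Kir2.1 that holds the resting potential, rose most. It was at 0.905, 1.21 and 0.938 in run A (GFP, WT, S40A) and at 6.05, 5.98 and 5.31 in run B. The groups were far apart, and the log2 difference was 1.75 ± 0.08 (SE; limma adjusted p = 0.00258). Kcnh1 rose by 1.07 ± 0.09 (SE; limma adjusted p = 0.00858), from 1.86 to 2.77 in A to 5.56 to 7.11 in B.

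Among the voltage-gated pores 6 rose and 3 fell of 14. Among those that rose, Kcnc1 rose by 0.78 on the log2 scale (limma adjusted p = 0.0177), Kcnd1 by 0.64, Kcna3 by 0.60 and Kcnb2 by 0.47, while Kcna4, Kcna6 and Kcnd3 fell by 0.65, 0.61 and 0.24. The BK pore gene Kcnma1 rose by 0.90, from 6.75 to 8.50 in A to 14.9 to 15.2 in B, and its beta subunit gene Kcnmb4 by 0.46. Kcnk12, a silent leak channel gene, rose by 0.76, and Kcnf1 by 0.90.

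Of 10 auxiliary genes 2 rose, Kcnab1 (0.45) and Kcnmb4, and 3 fell. Kcnip3 fell by 0.85 (limma adjusted p = 0.0122), from 6.90, 6.94 and 9.28 to 3.70, 3.62 and 4.06, Kcnip2 by 0.81 and Kcnab3 by 0.66. The EAG and ERG genes went both ways, with Kcnh1 and Kcnh7 (0.45) higher and Kcnh4 and Kcnh2 lower by 0.91 and 0.43. The silent subunits Kcng1 and Kcns2 fell by 0.60 and 0.63, and the calcium- and sodium-activated genes Kcnn2 and Kcnt2 by 0.56 and 0.54. Activity-regulated transcription factors were higher in B throughout: 18 of 18 tested immediate early genes were called higher, with a median of 1.98, and their part in the channel differences was not tested. The markers of dividing progenitors were lower in B in 6 of 6 and called in 3, and those of astrocytes and radial glia called in 1 of 10.

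Of 38 tested partners of potassium channels and genes of potassium transport 17 were called (44.7%, against 41.1% of all genes), 14 higher and 3 lower, a share near the background. Among them were the chloride and potassium cotransporter gene Slc12a5 (0.76) and the sodium pump subunit gene Atp1b1 (0.95).

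Between runs D1 and D2 at 8 h, 14 of 60 members (23.3%) were called, 8 higher and 6 lower in D2, against 23.8% of all genes (12.0% higher, 11.8% lower), again near the background. Without scaling, which puts the median of all genes at -0.13, the split was 2 higher and 11 lower (all genes 850 higher and 3587 lower). With GFP, WT and S40A alone 0 members were called by limma (all genes 336, or 2.78%, against 23.8% with all libraries). For the single pairs and the library that follow, the share over all genes is not given. A lower count there is not read as particular to the members. Without the S133A pair, which is what leaving out either S133A library amounts to in this fit, the count was 4, and without the S40A-S133A pair it was 6. Leaving out S40A replicate 4 gave 9. With the run D1 libraries of S133A and S40A-S133A both left out it was 0 (all genes 327).

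Kcnf1, the silent Kv5.1 subunit gene, differed most. It was at 14.9, 15.3, 24.5, 13.6 and 12.0 in D1 (GFP, WT, S40A, S133A, S40A-S133A) and at 34.3, 25.4, 40.7, 41.5 and 36.1 in D2. All 5 viruses were higher in D2, by 0.69 (WT) to 1.54 (S133A), and the D2 libraries lay above every D1 library. The log2 difference was 1.12 ± 0.18 (SE; limma adjusted p = 0.00361), and Kcnf1 was called in 16 of 16 fits that left out 1 library. Kcnk9 was also called in 16 of 16, Kcnh2 and Kcnn2 in 14, Kcna4 and Kcnq5 in 12, Kcnk3 in 8, Kcnj4 and Kcnj11 in 7, Kcnj3 and Kcnip1 in 5 and Kcnc4 in 3.

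Kcnk9 fell by 0.57 ± 0.11 (SE; limma adjusted p = 0.00817), with 28.6, 33.9, 42.3, 51.1 and 44.3 in D1 and 25.3, 19.9, 27.9, 28.4 and 30.9 in D2. Kcnn2 (0.57), Kcnj4 (0.54), Kcnc4 (0.60) and Kcnk3 (0.36) rose, and Kcnh2, Kcnq5, Kcna4, Kcnj11 and Kcnj3 fell by 0.31, 0.35, 0.49, 0.48 and 0.26. Kcnip1 rose by 0.64, but by virus the difference was 1.12 (S133A) and 1.20 (S40A-S133A) against 0.25 to 0.32 for the others, which is the D1 gap described above. Of the immediate early genes 18 of 18 were higher in D2 and 16 were called, with a median of 1.27, and 6 of 38 partner genes were called (15.8%, against 23.8% of all genes), 2 higher and 4 lower. Of the excitatory markers 0 of 7 were called, and of the astrocyte and radial glia markers 0 of 10. Creb1 in the CREB libraries was at 555 to 745 in D1 and 1861 to 2314 in D2. The part of either in the channel differences was not tested.

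The comparisons of B with A and of D2 with D1 share no library. They called 6 members in common, 22.2% of the 27 and 42.9% of the 14, where all genes gave 25.2% and 43.6%. Of the 6, 5 went the same way, among them Kcnf1, higher in both, and Kcna4 and Kcnh2, lower in both. Kcnn2 went opposite ways. For all genes the share with the same direction was 72.1% of those called in both.

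**Figure D5:**
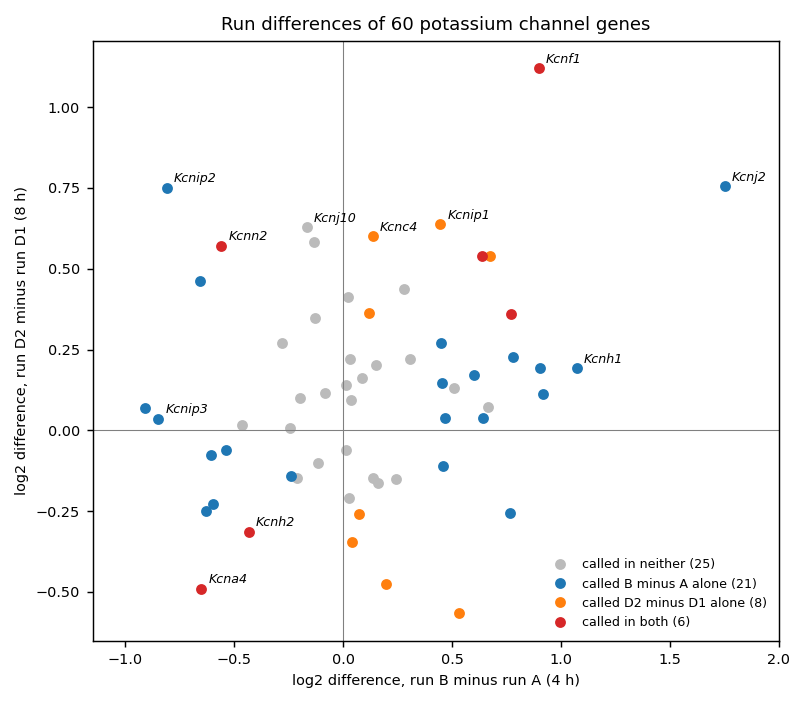
Log2 difference of run B from run A at 4 h (horizontal) against that of run D2 from run D1 at 8 h (vertical) for the 60 tested potassium channel genes, coloured by the comparison in which they were called at an adjusted p under 0.05. Kcnf1 lies at 0.90 and 1.12 and is called in both, and Kcnj2 lies at 1.75 and is called in B minus A.

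In the remaining runs the level of Kcnj2 was 4.92, 3.57 and 2.65 in C1 (GFP, WT, S40A), 1.42, 4.87 and 1.12 in C2, 0.659 to 1.42 in D1 and 1.39 to 3.85 in D2. The D2 minus D1 difference of Kcnj2 was 0.53 to 1.01 by virus and did not pass the test.

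The remaining run comparisons called 0 members. For set D minus set C the background was 0.124% called, and 9 members had an unadjusted p under 0.05 (all genes 14.2%), the smallest for Kcnh4 (log2 difference -0.29 ± 0.07, SE; limma adjusted p = 0.124). For C2 minus C1 the background was 0.0%, and 9 members had an unadjusted p under 0.05 (all genes 8.89%), with Kcnq3 at 0.39 ± 0.11 (SE; limma adjusted p = 0.545) and 1 call without the S40A replicate 1 library.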

How the data were processed

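Libraries were made from total RNA with an mRNA kit, per the labels' protocols, and read on an Illumina HiSeq 2500, per the series' design text. FPKM values, which the authors deposited in a table for each library, were made with CASAVA 1.7, Bowtie 0.12.2 and Cufflinks, per the submitters' processing notes, which name the builds mm8 and mm10 without a role. Positions in the files fall on mm10. Read totals, strand handling and the treatment of reads with several matches are not given in the sources used here. Members that overlap an antisense entry, such as Kcnd3, Kcnmb4 and Kcnq1, and near-identical copies are therefore uncertain.

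FPKM values were scaled by median-of-ratios factors (0.867 to 1.10), a pseudocount of 1 was added and log2 values were taken, which understates changes of low genes. Entries with a failed estimate (23) and genes of mean under 1 FPKM were left out, leaving 12097 genes. limma 3.58.1 (R 4.3.3) with a mean-variance trend gave two-sided tests, adjusted over all genes. The 8 h fit had a term for the set C or D, the 4 h fit none, the run fits virus and run, and the fit across times all 22 libraries. Libraries of 1 number at 4 h deviated together (all correlations of deviations from the group means 0.546 to 0.563). With 2 libraries per group the deviations mirror each other, so runs A and B give the same correlations. The run A files also differ in kind, so pairing and processing cannot be told apart in these correlations. The fit with the run as a replicate block is given beside the 4 h counts. The fits left 10 (8 h), 3 (4 h), 13 (both times), 2 (B minus A) and 8 (runs at 8 h) residual degrees of freedom. Python 3.11.15, pandas 2.3.3, numpy 2.4.6 and matplotlib 3.10.9 made tables and figures, and the fits were checked on simulated data. Identical values were found in 0 pairs of libraries.

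The genes, the lists (partners and potassium transport, immediate early genes, 8 cell type marker lists) and the comparisons were chosen with earlier results of these data known. Named genes were every called member, up to 2 of the highest level in each subfamily, the 3 of smallest unadjusted p in each comparison (up to 10 where members were called), a short list set by name (Kcnq3, Kcnb2, Kcnd2, Kcnd3, Kcnj10 and Kcnip3 among it), and the 3 with the widest and the 3 with the narrowest range, which named 54 of the 60. Values of some single members are not reported here, while counts and sums over members include them.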

Additional observations from a re-analysis of the deposited data

Results flagged for a closer look

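In groups of 4 libraries, a library was picked out where its gap to the nearest of the other libraries as a share of the group's range exceeded Dixon's 95% critical value. This was so in 3 of 150 gene and group pairs examined, and chance alone picks out about 1 in 20.

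Kcnc1, a fast Kv3 pore gene, was at 17.7 in WT 8 h replicate 2, against 8.37 to 9.62 in the other WT libraries. Kcnh7, an ERG-type gene, was at 6.42 in the same library, against 4.09 to 4.12. Kcnt2, a sodium-activated channel gene, was at 3.32 in S40A 8 h replicate 4, against 4.33 to 4.50.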

How the results depend on the processing

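Over the 20 comparisons, 480 alternative counts of called members were computed. In the 18 comparisons with 0 members called, 443 of 444 alternatives also gave 0. They covered another pseudocount, minimum or scaling, no set term, set D alone and 1 library left out, where a group left with 1 library is assumed to vary like the others. The exception was C2 minus C1, where leaving out 1 library gave 0 to 1. For B minus A a minimum of 5 FPKM gave 16 called of 35 tested, since fewer members were tested, and leaving out 1 library gave 1 to 27. For D2 minus D1 leaving out 1 library gave 4 to 17, and 2 alternatives chosen after seeing the data gave 0: the GFP, WT and S40A libraries alone, and S133A and S40A-S133A without their run D1 libraries. Of the fits with libraries left out, counts over all genes are given above only for these 2, and the cause was not tested. For single genes, 1722 alternatives kept direction and side of the threshold, 241 lost the call and 1 reversed: Kcnj3 in S40A-S133A minus S133A was -0.23, and leaving out 1 library gave -0.48 (without S133A replicate 2) to 0.0167 (without S133A replicate 1).

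With the run as a replicate block, 0 members were called in every virus comparison, as without it. At 8 h the correlations of deviations within a run were -0.0411 to 0.396, so the labels' numbers were not taken as pairs there. The highest was between S133A and S40A-S133A, in both D1 and D2. These groups have 2 libraries each, whose deviations mirror each other, so it is a single value. For 12 of 16 libraries the most similar deviation in another group was from the same run. The 16 hold the libraries of these groups too, so this is a weak hint from the data and not from the design.

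Low levels limit the 37 members that were not tested.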
